A study of Homo sapiens with 4 samples.

Results

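The genes described here encode glycosyltransferases and carbohydrate sulfotransferases, the enzymes that build sugar chains on proteins and lipids. They were taken by symbol, as every gene of the GALNT, B3GNT, B3GALT, B3GAT, B4GALT, B4GALNT, ST3GAL, ST6GAL, ST8SIA, FUT, MGAT, EXT, EXTL, CHST, HS2ST, HS3ST, HS6ST, NDST and XYLT families together with UGCG. Of 127 such genes, 70 had a value among the 11650 genes of the deposited files, and the other 57 were not analysed here. Of the 70 genes, 59 had a mean of at least 1 FPKM over all libraries and were tested. FPKM is the number of fragments scaled to transcript length and to the mapped fragments of the library, so levels can be set side by side between genes.

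RNA came from 92.1, an established human cell line grown from a uveal melanoma, a tumour of the pigment cells of the eye. There were 2 libraries of the parental line (parental) and 2 of a resistant derivative of it (resistant). The labels do not name the agent the derivative resists, whether it is 1 clone or whether replicates were grown apart. The p-values therefore cover only the scatter of these 4 libraries, and that scatter may be technical. The cell line field of the labels counts upward from sample to sample (92.1, 93.1, 94.1 and 95.1), while the titles name 92.1 in all 4, and the titles were followed.

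Gangliosides are sialic acid-bearing glycolipids made in the Golgi by enzymes that act one after another on glucosylceramide, and pigment cell tumours are known for carrying them. Mucin-type O-glycans start with a GalNAc residue that GALNT enzymes place on serine or threonine, and N-glycans are branched by MGAT enzymes. Sialyltransferases cap the ends of all these chains. Glycosaminoglycans such as heparan sulfate and chondroitin sulfate are long chains on proteoglycans, built from a shared linker and then sulfated.

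For 55 of the 70 genes RefSeq (build GRCh38.p14) gave at least 1 promoter window. The 250 bases upstream of 1 RefSeq start are shown for the 4 genes of lowest unadjusted p among the matched genes whose sequence could be shown, since their values are described below. None of the 4 passed the adjusted threshold. The GALNT12 and ST6GALNAC4 windows lie outside the gene's GENCODE span, while those of CHST11 and GALNT3 lie inside it, before an internal start. Capitals mark GGGCGG on either strand, the GC box. GALNT12 holds 4 matches, ST6GALNAC4 6, CHST11 2 and GALNT3 2, counting matches that share bases.
GALNT12, chr9:98807420-98807669, plus strand: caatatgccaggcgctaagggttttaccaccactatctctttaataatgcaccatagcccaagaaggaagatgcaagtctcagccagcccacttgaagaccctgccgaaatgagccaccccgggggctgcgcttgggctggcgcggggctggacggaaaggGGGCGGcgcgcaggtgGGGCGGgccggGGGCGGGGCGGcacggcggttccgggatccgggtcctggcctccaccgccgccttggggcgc
CHST11, chr12:104456698-104456947, plus strand: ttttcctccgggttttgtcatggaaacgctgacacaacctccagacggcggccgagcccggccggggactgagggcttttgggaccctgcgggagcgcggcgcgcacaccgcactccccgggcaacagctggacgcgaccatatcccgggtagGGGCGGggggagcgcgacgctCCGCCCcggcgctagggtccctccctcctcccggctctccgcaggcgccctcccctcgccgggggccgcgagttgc
ST6GALNAC4, chr9:127917042-127917291, minus strand: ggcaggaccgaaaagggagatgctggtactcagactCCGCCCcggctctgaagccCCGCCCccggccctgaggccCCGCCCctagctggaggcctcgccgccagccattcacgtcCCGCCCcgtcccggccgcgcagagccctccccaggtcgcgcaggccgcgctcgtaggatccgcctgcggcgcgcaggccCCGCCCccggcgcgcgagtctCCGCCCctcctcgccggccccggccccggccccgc
GALNT3, chr2:165794248-165794497, minus strand: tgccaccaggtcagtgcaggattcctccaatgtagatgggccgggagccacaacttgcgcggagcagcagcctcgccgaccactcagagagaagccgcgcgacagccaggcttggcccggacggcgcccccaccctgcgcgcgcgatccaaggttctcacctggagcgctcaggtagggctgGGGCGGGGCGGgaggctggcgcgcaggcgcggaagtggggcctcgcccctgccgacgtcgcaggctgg
The GC box stood in 59 of the 86 windows of the genes described here (68.6%) and in 42.6% of all 35116 windows of that length. CATGTG stood in 5 of 86 (5.81%, against 9.42% of all windows), CACGTG in 6 (6.98%, against 6.34%) and TGACTCA in 2 (2.33%, against 4.2%). None of these 3 motifs, searched on both strands, stood in the windows printed above. A match is a description of the letters only.

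Pigment cell genes were present in every library, and of the 7 listed 0 were higher and 2 lower at an unadjusted limma p under 0.05. Among all genes tested 6.06% were higher and 10.2% lower at that level. TYRP1, a melanin enzyme, stood at 1490 and 1484 FPKM in the parental line and at 2143 and 1514 FPKM in its derivative, and SOX10, a lineage transcription factor, at 91.8 and 73.3 against 54.9 and 54.3 FPKM. DCT, another melanin enzyme, was lower, at 4.88 and 5.46 against 0.486 and 0.517 FPKM (-2.04 ± 0.17, limma adjusted p = 0.0544), and met the filter because of its parental values. Fewer cells of a type and less RNA per cell cannot be told apart in such bulk samples. Summed FPKM over all genes ran from 282602 to 293481, and true depth is unknown. The 70 genes together took 0.112% to 0.143% of it. Summed levels of markers of other cell types stood apart between the groups for 4 lists, though no marker passed the adjusted threshold in limma. The 4 fibroblast markers with a value (of 9) summed to 5.94 and 6.90 FPKM in the parental line and 14.4 and 10.6 FPKM in its derivative, the 3 epithelial ones (of 6) to 3.12 and 3.91 against 9.39 and 17.7 FPKM, and the 2 leukocyte ones (of 7) to 32.6 and 27.4 against 13.2 and 10.7 FPKM. The 3 markers of retinal pigment epithelium (of 5) summed to 5.29 and 4.69 against 4.48 and 3.08 FPKM. In the fibroblast list LUM, the most abundant, had groups that overlapped, while ACTA2, COL1A1 and COL1A2 were higher in both resistant libraries. ACTA2 stood at 0.741 and 0.891 against 4.78 and 3.28 FPKM, and met the filter because of its resistant values. The leukocyte sum is that of CD68 and LCP1, and the epithelial sum that of KRT8, KRT18 and KRT19. In the retinal pigment epithelium list RLBP1 was lower, at 2.49 and 2.24 against 0.722 and 0.758 FPKM, BEST1 had groups that overlapped, and TTR lay the other way, listed at 0 and 0.0350 against 0.552 and 0.847 FPKM. Every gene in the files had a mean of at least 0.5009 FPKM in 1 group or both. COL1A2, KRT8, KRT19 and TTR did so through resistant values alone. The other markers of these lists, PTPRC, EPCAM and the 5 endothelial ones among them, were not analysed here. The part of other cells in the differences below was not tested.

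No gene of the set passed the threshold in resistant against parental libraries. By limma, fitted over 10271 genes with Benjamini-Hochberg adjustment at 0.05, 0 of 59 were higher and 0 lower, where 0.0487% and 0.00974% of all genes tested passed in those directions. The lowest adjusted p in the set was 0.117, for ST3GAL1. At an unadjusted limma p under 0.05, 4 of the 59 were higher (6.78%, against 6.06% of all genes) and 9 lower (15.3%, against 10.2% of all genes). The share of higher genes lay near that of all genes and the share of lower genes above it, and neither share was tested against all genes. Of all genes at that level 37.3% were higher, a balance that became 50.8% under median-of-ratios scaling. Both resistant libraries lay above both parental ones for 7 genes (11.9%, against 19.1% of all genes) and below them for 23 (39%, against 31.8%). The median difference was -0.14 on the log2(FPKM + 1) scale, where the median of all genes tested was -0.08. The median of the set was 0.01 when resistant replicate 2 was left out, -0.29 when resistant replicate 1 was, -0.08 when parental replicate 1 was and -0.21 when parental replicate 2 was. Median-of-ratios scaling gave -0.07 and quantile normalization -0.06. Single libraries also moved the counts, those of all genes along with those of the set. Such fits leave 1 library in a group, so their counts are not reported here. Every difference below is resistant minus parental on the log2(FPKM + 1) scale with its limma SE. This scale understates the differences of low genes.

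**Figure D1:**
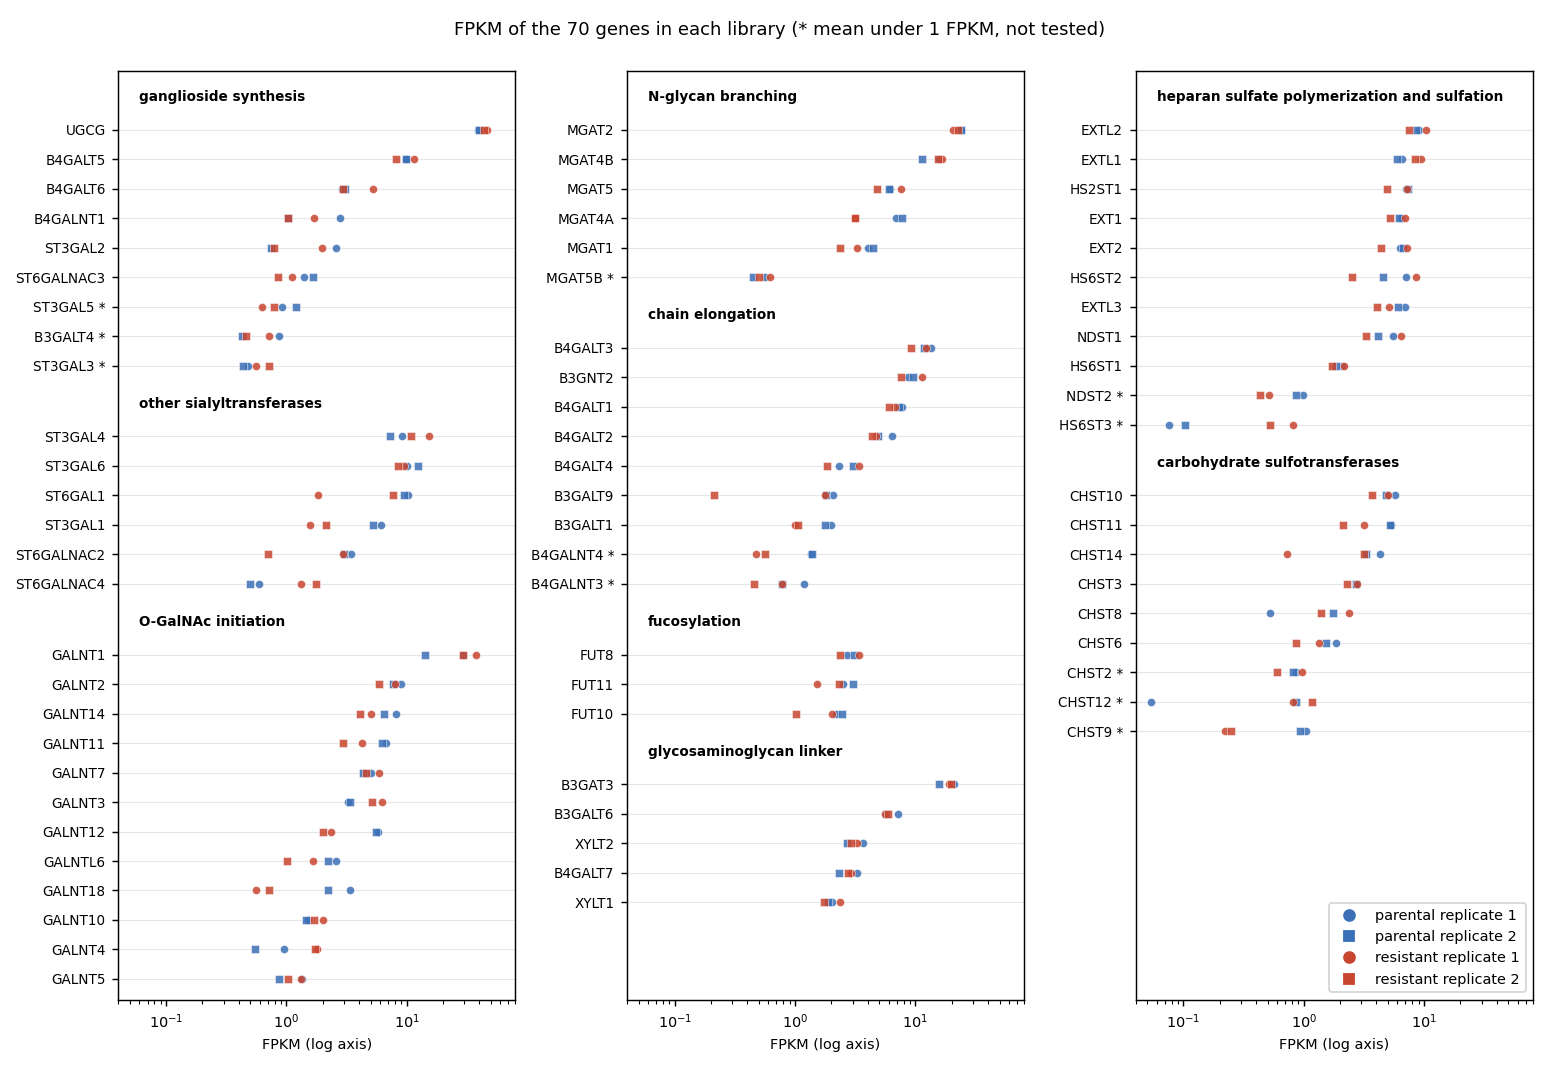
FPKM of each of the 70 genes (log axis) in the 2 parental (blue) and 2 resistant (red) libraries, by pathway, with circles for replicate 1 and squares for replicate 2. UGCG is the most abundant in every library, and for ST3GAL1, GALNT12, GALNT18 and MGAT4A both red points lie well to the left of both blue ones.

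**Figure D2:**
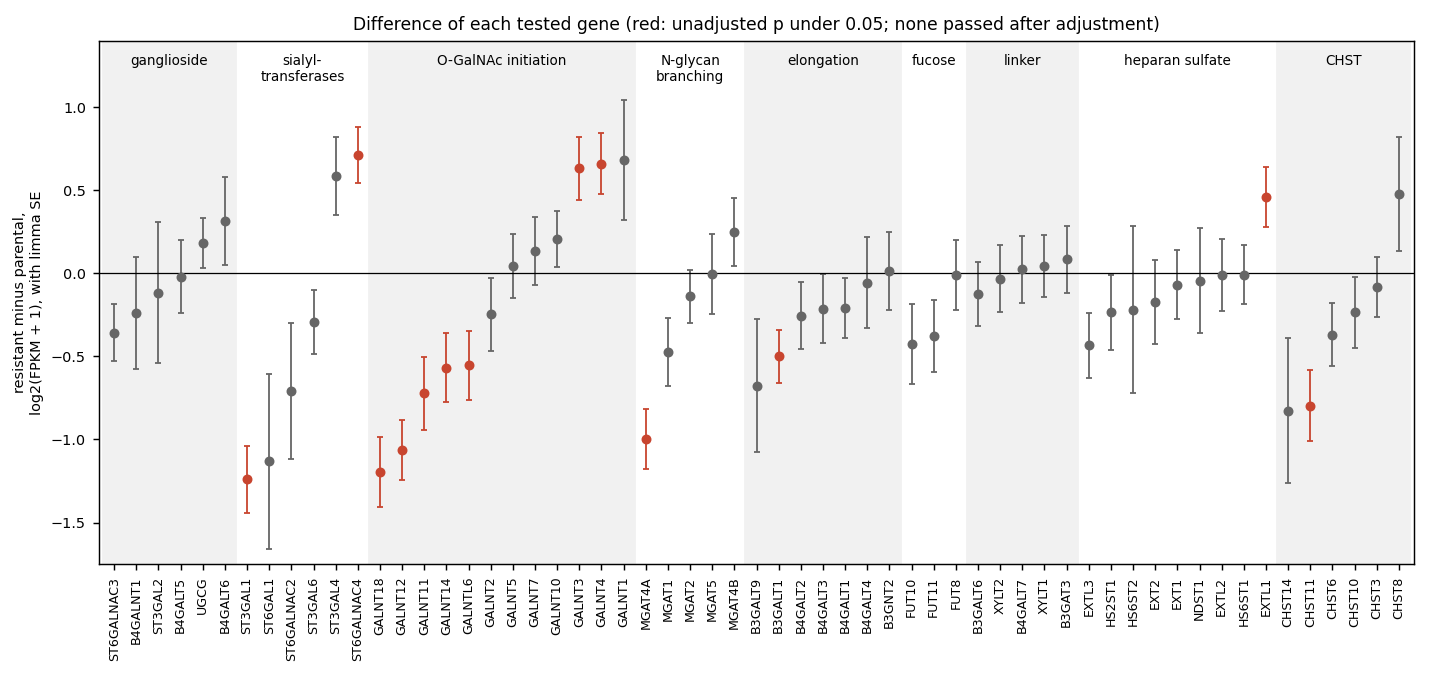
Difference between resistant and parental libraries on the log2(FPKM + 1) scale, with the limma SE as bars, for the 59 tested genes by pathway. Red marks the 13 genes with an unadjusted p under 0.05, 9 below 0 and 4 above, of which 7 are GALNT genes.

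Ganglioside synthesis was led by UGCG in both groups, and no enzyme of the route separated the groups at an unadjusted p under 0.05. UGCG, which makes the glucosylceramide that starts the route, stood at 39.4 and 39.7 FPKM in parental libraries and 46.4 and 43.6 FPKM in resistant ones. It was the highest of all 70 genes, at a mean of 39.5 ± 0.217 and 45.0 ± 2.02 FPKM (SD, n = 2 each), and both resistant libraries lay above both parental ones (0.18 ± 0.15, limma adjusted p = 0.572). Of the pair that adds galactose to make lactosylceramide, B4GALT5 stood at 9.94 and 9.81 against 11.6 and 8.17 FPKM, so that the resistant libraries lay on either side of the parental ones. B4GALT6 stood at 2.92 and 3.08 against 5.25 and 2.97 FPKM, high in resistant replicate 1 alone. B4GALT5 gave 77.3% and 76.1% of the pair's summed FPKM in the parental line and 68.8% and 73.3% in its derivative.

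The sialic acid and GalNAc steps that follow were low. ST3GAL5, which makes GM3, the first ganglioside, stood at 0.915 and 1.21 FPKM in the parental line and 0.631 and 0.786 FPKM in its derivative, under the filter and so not tested. Both resistant libraries lay below both parental ones. B4GALNT1, which makes GM2 and GD2, stood at 2.76 and 1.03 against 1.70 and 1.03 FPKM. B3GALT4, which makes GM1, stood at 0.867 and 0.429 against 0.721 and 0.463 FPKM and was not tested. ST3GAL2, which sialylates the galactose that B3GALT4 adds, stood at 2.59 and 0.737 against 1.98 and 0.781 FPKM. For these 3 genes the libraries numbered 1 were above those numbered 2 in both groups, and that gap was wider than the difference between groups. An exon of B4GALNT1 overlaps SLC26A10 on the other strand, and whether counting used strand is not stated by the sources at hand.

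At the end of the route, ST6GALNAC3, which adds sialic acid to GalNAc, stood at 1.4 and 1.67 FPKM in parental libraries and 1.11 and 0.857 FPKM in resistant ones, with no overlap (-0.36 ± 0.17, limma adjusted p = 0.362). ST3GAL3, a sialyltransferase that also acts on glycoproteins, stood at 0.479 and 0.438 against 0.562 and 0.717 FPKM and was not tested. Its exons overlap other annotated genes on both strands. GD3 synthase (ST8SIA1), ST8SIA5, ST6GALNAC5 and ST6GALNAC6 were not analysed here. Of the 9 ganglioside enzymes with a value 6 were tested, and 0 had an unadjusted limma p under 0.05 in either direction. Among all genes tested 6.06% were higher and 10.2% lower at that level. The median difference of those 6 enzymes was -0.07, and leaving out resistant replicate 1 gave -0.34. Leaving out resistant replicate 2 gave 0.22 and leaving out parental replicate 1 gave 0.19, so its sign rests on single libraries. Quantile normalization turned it to 0.02, and median-of-ratios scaling to 0.0042.

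**Figure D3:**
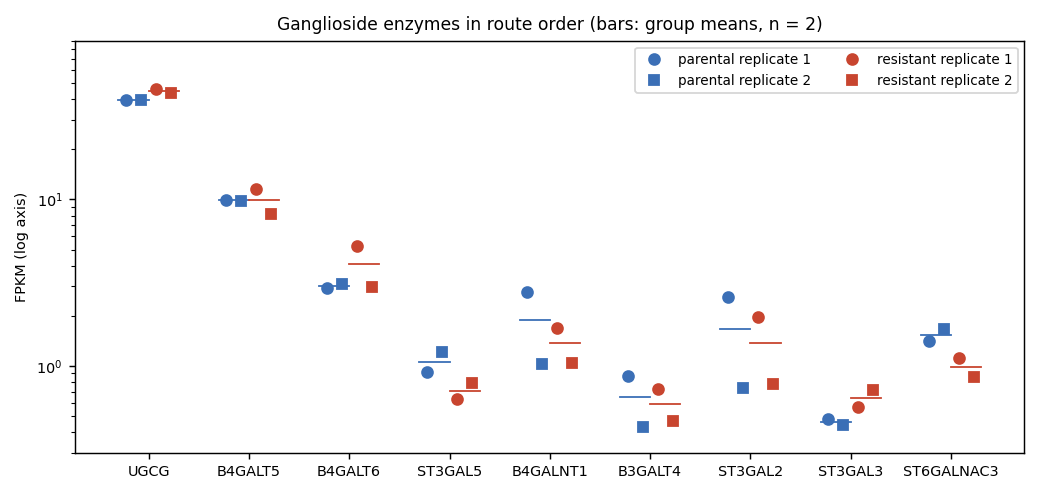
FPKM (log axis) of the 9 ganglioside enzymes with a value, in the order of the route, with 1 point per library and a bar at each group mean (n = 2). UGCG lies between 39.4 and 46.4 FPKM, while ST3GAL5, B3GALT4 and ST3GAL3 reach at most 1.21 FPKM, and B4GALNT1 and ST3GAL2 spread more within each group than between the groups.

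No sialyltransferase of glycoproteins passed the adjusted threshold, and at an unadjusted limma p under 0.05 ST6GALNAC4 was higher and ST3GAL1 lower. That is 1 higher and 1 lower of 6 tested, where 6.06% and 10.2% of all genes were. ST3GAL1, which caps the core O-glycan disaccharide with sialic acid, stood at 6.14 and 5.26 FPKM in the parental line and 1.56 and 2.12 FPKM in its derivative. The mean was 3.09-fold lower, the groups did not overlap, and the difference was -1.24 ± 0.20 (limma adjusted p = 0.117, unadjusted p = 0.00135), the lowest p of the tested set. Its gap was the widest on the log2(FPKM + 1) scale only, since the ratio of means was larger for GALNT18 (below). ST6GALNAC4, which adds a further sialic acid to the O-glycan that ST3GAL1 has capped, stood at 0.594 and 0.496 against 1.31 and 1.76 FPKM (0.71 ± 0.17, limma adjusted p = 0.179). With parental values below 1 FPKM, it met the filter because of its resistant values.

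ST3GAL4, which sialylates lactosamine chains, stood at 9.17 and 7.30 FPKM in parental libraries and 15.2 and 10.8 FPKM in resistant ones (0.59 ± 0.24, limma adjusted p = 0.313). ST3GAL6, which acts on like chains, stood at 10.1 and 12.3 against 9.55 and 8.38 FPKM (-0.29 ± 0.19, limma adjusted p = 0.494), though its exons overlap DCBLD2 on the other strand. Within the summed FPKM of the 6 ST3GAL genes, ST3GAL1 held 20.9% and 19.3% in the parental line and 5.30% and 9.01% in its derivative. ST3GAL4 held 31.2% and 26.8% against 51.5% and 45.7%, and so passed ST3GAL6 as the leading member in both resistant libraries. It stood below ST3GAL6 in both parental ones. The family's sum was 29.4 and 27.3 FPKM against 29.4 and 23.6 FPKM.

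ST6GAL1 and ST6GALNAC2 differed mainly in 1 resistant library each. ST6GAL1, which caps N-glycan lactosamine with sialic acid in the linkage read by the lectin SNA, stood at 10.3 and 9.52 FPKM in parental, 1.84 FPKM in the first resistant library and 7.69 FPKM in the other (-1.13 ± 0.53, limma adjusted p = 0.357). ST6GALNAC2, an enzyme of O-glycans, stood at 3.46 and 2.99 FPKM in parental and 2.93 FPKM in resistant replicate 1, and at 0.698 FPKM in resistant replicate 2 (-0.71 ± 0.41, limma adjusted p = 0.445). Its exons overlap other genes on both strands. The 6 sialyltransferases with a value outside the ganglioside list all had groups that did not overlap, 2 higher and 4 lower. Of all genes tested 19.1% lay higher and 31.8% lower in that way. Over all 8 tested sialyltransferases, with those of the ganglioside list, 2 lay higher, 5 lower and 1, ST3GAL2, overlapped. The 10 sialyltransferases with a value together reached 45.1 and 42.0 FPKM in the parental line and 36.6 and 34.6 FPKM in its derivative.

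O-GalNAc initiation held the most genes at an unadjusted p under 0.05, with 2 of 12 tested GALNT genes higher and 5 lower, where 6.06% and 10.2% of all genes were. The difference from all genes was not tested. GALNT12 stood at 5.76 and 5.52 FPKM in the parental line and 2.34 and 2.01 FPKM in its derivative, 2.59-fold lower in the mean (-1.06 ± 0.18, limma adjusted p = 0.122). GALNT18 stood at 3.35 and 2.23 against 0.561 and 0.715 FPKM, 4.37-fold lower in the mean (-1.20 ± 0.21, limma adjusted p = 0.127), and stayed below 1 FPKM in both resistant libraries, so that it met the filter because of its parental values. For both genes the gap between the groups was far wider than that between replicates.

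GALNT11 stood at 6.74 and 6.26 FPKM in parental libraries and 4.25 and 2.93 FPKM in resistant ones (-0.72 ± 0.22, limma adjusted p = 0.235). GALNT14 stood at 8.06 and 6.52 against 5.08 and 4.11 FPKM (-0.57 ± 0.21, limma adjusted p = 0.286), and GALNTL6 at 2.59 and 2.23 against 1.66 and 1.02 FPKM (-0.55 ± 0.21, limma adjusted p = 0.293). On the higher side, GALNT3, known for modifying the hormone FGF23, stood at 3.22 and 3.37 against 6.24 and 5.12 FPKM (0.63 ± 0.19, limma adjusted p = 0.233). GALNT4, which prefers peptides that already carry GalNAc, stood at 0.949 and 0.550 against 1.78 and 1.72 FPKM (0.66 ± 0.18, limma adjusted p = 0.213). The gene lies within the POC1B-GALNT4 readthrough locus on the same strand, so its reads may be shared, and with parental values below 1 FPKM it met the filter because of its resistant values. None of these 5 genes had groups that overlapped.

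The broadly expressed GALNT1 was the most abundant of the family and had groups that overlapped, at 29.2 and 14.0 FPKM in the parental line and 37.7 and 29.1 FPKM in its derivative (0.68 ± 0.36, limma adjusted p = 0.41). GALNT2 stood at 8.98 and 7.64 against 7.99 and 5.82 FPKM. GALNT7, GALNT5 and GALNT10 had differences of 0.13, 0.05 and 0.21. Of the summed GALNT FPKM, GALNT1 held 38.0% and 25.5% in the parental line and 49.1% and 48.6% in its derivative, while GALNT12, GALNT14, GALNT11 and GALNT18 each held smaller shares in the resistant libraries, with no overlap. The sum was 76.7 and 55.0 FPKM against 76.8 and 59.9 FPKM, with the groups interleaved. C1GALT1, outside the set, adds the galactose that follows and stood at 2.04 and 2.44 against 4.02 and 4.18 FPKM (0.66 ± 0.18, limma adjusted p = 0.212).

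**Figure D4:**
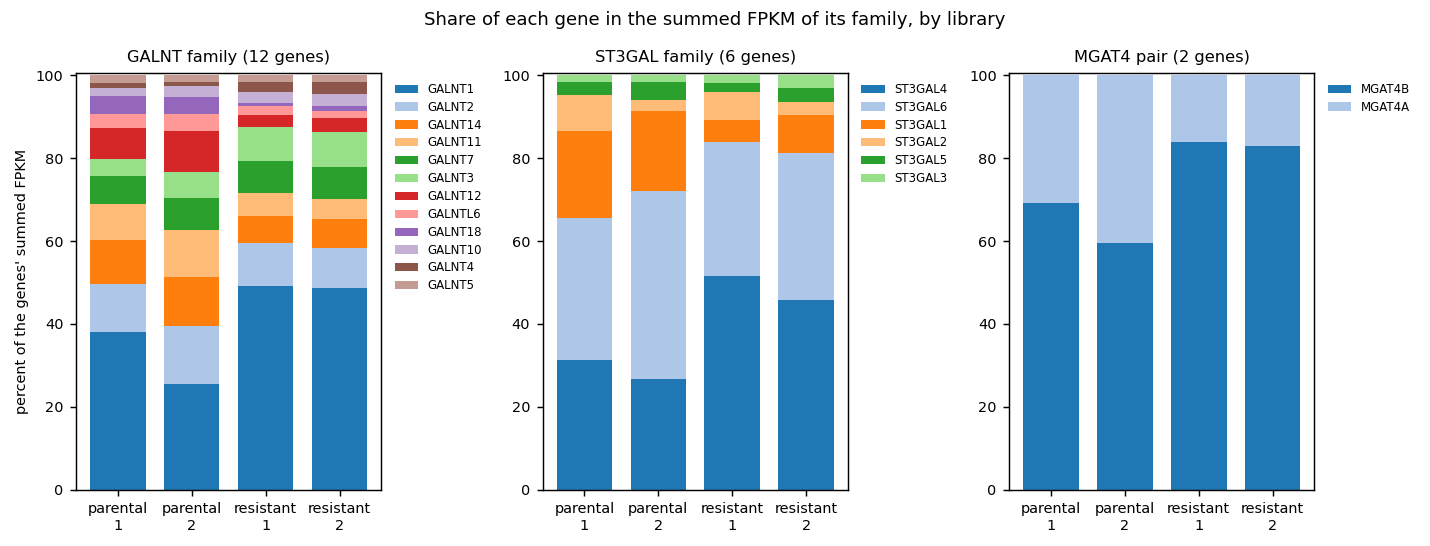
Percent of the summed FPKM of the GALNT genes (12), the ST3GAL genes (6) and the MGAT4 pair that each gene held, in each library. GALNT1 reaches 49.1% and 48.6%, ST3GAL4 51.5% and 45.7% and MGAT4B 84.0% and 83.0% in the resistant libraries, each above both parental libraries.

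Among the enzymes that branch N-glycans, MGAT4A was the 1 of 5 tested genes lower at an unadjusted p under 0.05, where 10.2% of all genes were. MGAT4A also had the lowest p of them. It adds GlcNAc to the mannose arm of N-glycans that MGAT1 opens, and stood at 6.91 and 7.76 FPKM in parental libraries and 3.17 and 3.17 FPKM in resistant ones (-0.997 ± 0.18, limma adjusted p = 0.131). MGAT4B, which catalyses the same reaction, stood at 15.6 and 11.4 against 16.6 and 15.5 FPKM (0.25 ± 0.21, limma adjusted p = 0.581), with an exon overlap with the abundant gene SQSTM1 on the other strand. MGAT4A held 30.8% and 40.4% of the pair's summed FPKM in the parental line and 16.0% and 17.0% in its derivative. MGAT2, which starts the second antenna, was the most abundant, at 23.8 and 24.0 against 20.6 and 22.7 FPKM (-0.14 ± 0.16), also with no overlap. MGAT1 had a difference of -0.47 ± 0.21 (limma adjusted p = 0.335), with groups that did not overlap. MGAT5, which adds the branch known from metastatic cells, had a difference of -0.0039 ± 0.24. MGAT5B was not tested, at 0.449 to 0.616 FPKM.

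Chain elongation showed 0 higher and 1 lower of 7 tested at an unadjusted p under 0.05, where 6.06% and 10.2% of all genes were. B3GALT1, which makes type I chains, stood at 1.97 and 1.77 FPKM in the parental line and 0.999 and 1.06 FPKM in its derivative (-0.50 ± 0.16, limma adjusted p = 0.252). The most abundant were the galactosyltransferase B4GALT3, at 13.3 and 11.8 against 12.3 and 9.25 FPKM, and B3GNT2, which extends polylactosamine, at 8.73 and 9.51 against 11.3 and 7.52 FPKM. Neither separated the groups. B4GALNT4, one of the enzymes that make the GalNAc form of lactosamine, was under the filter, at 1.34 and 1.37 against 0.476 and 0.563 FPKM, with no overlap. Of the summed FPKM of B4GALT1 to B4GALT4, B4GALT3 took 43.1% to 45.2% in the 4 libraries, and B4GALT4 7.81% to 12.5%. B3GALT9, whose exons overlap FBXW2 on the other strand, stood at 2.06 and 1.81 FPKM in parental, 1.78 FPKM in the first resistant library and 0.212 FPKM in the other.

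Of 11 fucosyltransferases 3 had a value. FUT8, which adds the core fucose of N-glycans, stood at 2.69 and 3.07 against 3.40 and 2.38 FPKM, the resistant libraries on either side of the parental ones. FUT11 stood at 2.51 and 3.02 against 1.51 and 2.33 FPKM (-0.38 ± 0.22, limma adjusted p = 0.44). FUT10 had a difference of -0.43 ± 0.24 (limma adjusted p = 0.434) and shares exon sequence with TTI2 on the same strand. The enzymes that make Lewis and H antigens (FUT1 to FUT7 and FUT9) were not analysed here.

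The glycosaminoglycan linker had no gene that separated the groups. All 5 of its enzymes had a value and all had groups that overlapped, with differences from -0.13 to 0.08. Of all 10271 genes tested 5034 had groups that overlapped, and the linker was not tested against all genes. B3GAT3, which completes the linker with glucuronic acid, stood at 21.1 and 15.7 FPKM in parental libraries and 19.1 and 19.6 FPKM in resistant ones. B3GALT6, which adds the linker's second galactose, stood at 7.10 and 5.68 against 5.54 and 5.96 FPKM. XYLT1 and XYLT2, which attach the first xylose, ranged from 1.74 to 2.37 and from 2.72 to 3.69 FPKM over the 4 libraries, and B4GALT7 from 2.33 to 3.29 FPKM.

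Heparan sulfate enzymes showed 1 higher and 0 lower of 9 tested at an unadjusted p under 0.05, where 6.06% and 10.2% of all genes were. EXTL1, a GlcNAc transferase of the exostosin family, stood at 6.51 and 5.99 FPKM in the parental line and 9.49 and 8.46 FPKM in its derivative (0.46 ± 0.18, limma adjusted p = 0.305). The polymerase subunits EXT1 and EXT2 had differences of -0.07 ± 0.21 and -0.17 ± 0.25. EXTL2 stood at 9.13 and 8.54 against 10.3 and 7.42 FPKM. EXTL3, which starts the chain, had groups that did not overlap (-0.43 ± 0.20, limma adjusted p = 0.351), from 6.97 and 6.10 to 5.10 and 4.08 FPKM. Of the sulfotransferases, HS2ST1, NDST1 and HS6ST1 overlapped between groups. HS6ST2, which sulfates glucosamine, ran from 8.53 FPKM in resistant replicate 1 to 2.49 FPKM in resistant replicate 2, a span that took in both parental values of 7.05 and 4.60 FPKM. Its relative HS6ST3 was under the filter, at 0.0754 and 0.103 in the parental line and 0.816 and 0.522 FPKM in its derivative, and NDST2 at 0.987 and 0.856 against 0.511 and 0.435 FPKM. HS6ST3 and NDST2 had groups that did not overlap, where 19.1% of all genes tested lay higher and 31.8% lower in that way. Every gene in the files had a mean of at least 0.5009 FPKM in 1 group or both. HS6ST3 did so through its resistant values alone, and NDST2 through its parental values alone.

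Of 6 tested CHST sulfotransferases 0 were higher and 1, CHST11, was lower at an unadjusted p under 0.05, where 6.06% and 10.2% of all genes were. CHST11, which sulfates chondroitin on GalNAc, stood at 5.33 and 5.23 FPKM in parental libraries and 3.17 and 2.13 FPKM in resistant ones (-0.80 ± 0.21, limma adjusted p = 0.208). CHST14, the matching enzyme of dermatan sulfate, stood at 4.31 and 3.28 FPKM in parental and at 0.727 FPKM in resistant replicate 1 but 3.19 FPKM in resistant replicate 2 (-0.83 ± 0.44, limma adjusted p = 0.408). CHST10, which sulfates the HNK-1 epitope, stood at 5.69 and 4.79 against 4.98 and 3.68 FPKM. CHST3, which sulfates chondroitin at another position, had a difference of -0.08 ± 0.18. CHST9 was under the filter, at 1.04 and 0.938 in the parental line and 0.219 and 0.246 FPKM in its derivative, a gap wider than that within either group. Only its parental mean reached the 0.5009 FPKM that every gene in the files met in at least 1 group. CHST12 stood at 0.0535 FPKM in parental replicate 1 and from 0.820 to 1.17 FPKM in the other 3 libraries. The 9 CHST genes together reached 22.4 and 21.9 FPKM in the parental line and 17.4 and 15.5 FPKM in its derivative.

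Resistant replicates differed from each other more than parental ones for the set, as for all genes. A gap of at least 1 on the log2 scale between the resistant libraries was found for 5 of 59 genes (8.47%, against 5.72% of all genes tested), and between the parental libraries for 2 (3.39%, against 3%). The 5 were ST6GAL1 and CHST14, lower in resistant replicate 1, and ST6GALNAC2, B3GALT9 and HS6ST2, lower in resistant replicate 2. In the parental libraries they were GALNT1 and ST3GAL2, both lower in replicate 2. MITF, the lineage transcription factor of pigment cells, was also lower in resistant replicate 1 (9.64 FPKM) than in resistant replicate 2 (31.8 FPKM), against 35.3 and 37.4 FPKM in parental libraries. So was the sialidase NEU3, at 0.661 and 2.60 against 3.66 and 4.2 FPKM. The part of these in the values of ST6GAL1 and CHST14 was not tested. Against the parental mean, the median of the 59 genes was 0.01 for resistant replicate 1 and that of all genes -0.01, while for resistant replicate 2 they were -0.29 and -0.16.

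**Figure D5:**
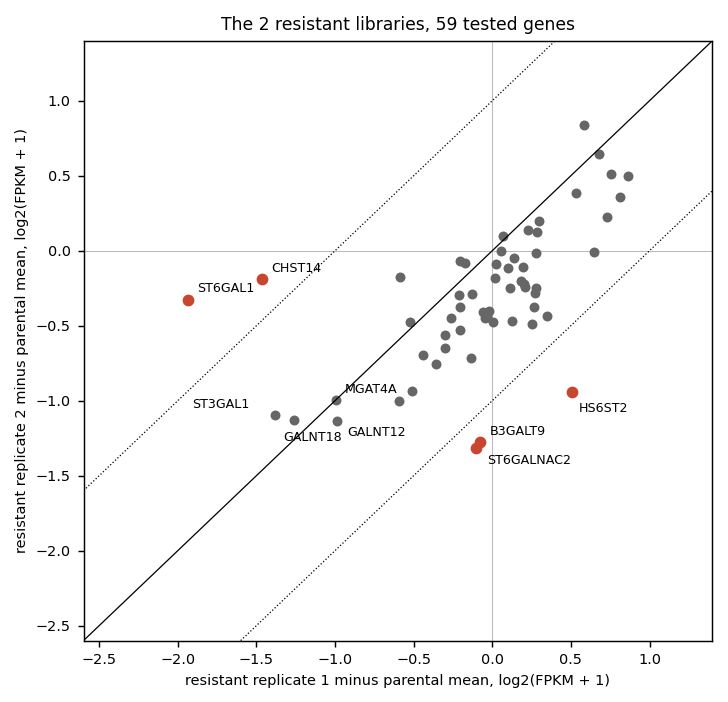
Difference of each resistant library from the parental mean, log2(FPKM + 1), replicate 1 on the horizontal and replicate 2 on the vertical axis, for the 59 tested genes, with the line of equality and dotted lines 1 unit away. ST3GAL1, GALNT18, GALNT12 and MGAT4A lie near the line, between -0.99 and -1.38 on the horizontal axis, and the 5 red genes lie beyond a dotted line.

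Genes around these pathways were taken from 6 related lists, and 0 of them passed the adjusted threshold in limma. Of 3 tested genes of core O-glycans 1 was higher, C1GALT1 (above), and 0 lower at an unadjusted p under 0.05. Of 25 tested genes that supply nucleotide sugars and sulfate donors, 2 were higher and 4 lower at an unadjusted limma p under 0.05. Among all genes tested 6.06% were higher and 10.2% lower at that level, and no list was tested against all genes. NANS, which makes sialic acid, stood at 18.5 and 18.8 FPKM in the parental line and 12.1 and 12.3 FPKM in its derivative (-0.58 ± 0.16, limma adjusted p = 0.214). SLC35A1, the carrier of CMP-sialic acid into the Golgi, stood at 12.5 and 13.3 against 9.27 and 4.47 FPKM (-0.89 ± 0.33, limma adjusted p = 0.287). Of other sialic acid genes, NANP was lower with no overlap (-0.37 ± 0.23), while GNE (0.45 ± 0.33) and CMAS (0.04 ± 0.18) had groups that overlapped. GFPT2, of the hexosamine pathway, stood at 3.19 and 3.07 against 1.33 and 1.03 FPKM (-0.92 ± 0.17, limma adjusted p = 0.139). SLC35D2, a nucleotide sugar carrier, was higher, at 9.0 and 7.34 against 19.2 and 14.3 FPKM (0.95 ± 0.22, limma adjusted p = 0.175). UGDH was the other higher gene at that level and GMDS the other lower one.

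Of 13 tested genes that break glycosphingolipids down, 3 were lower at that level, GM2A, NEU1 and NEU3 (above), where 10.2% of all genes were. The higher side of this list is not reported here, and the median difference of the 13 genes was 0.04. GM2A, the activator that presents GM2 for cleavage, stood at 27.1 and 26.9 against 19.3 and 13.2 FPKM (-0.72 ± 0.22, limma adjusted p = 0.241), and the lysosomal sialidase NEU1 at 17.5 and 16.7 against 12.7 and 7.09 FPKM (-0.78 ± 0.29, limma adjusted p = 0.287).

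Proteoglycan core proteins, which carry the glycosaminoglycans, showed 3 higher and 3 lower of 12 tested at an unadjusted p under 0.05. Of all genes tested 6.06% were higher and 10.2% lower at that level, and the difference from all genes was not tested. BGN, a small chondroitin or dermatan sulfate proteoglycan, stood at 9.95 and 9.60 FPKM in the parental line and 4.25 and 3.78 FPKM in its derivative (-1.11 ± 0.18, limma adjusted p = 0.114). SDC3, a syndecan with heparan sulfate, stood at 5.58 and 3.96 against 8.28 and 9.29 FPKM (0.78 ± 0.22, limma adjusted p = 0.215), and SRGN, the core protein of secretory granules, at 0.152 and 0.313 against 1.83 and 7.02 FPKM (1.95 ± 0.49, limma adjusted p = 0.193). SRGN met the filter because of its resistant values. Of 8 other tested glycosaminoglycan enzymes 0 were higher and 1 lower, the chondroitin polymerase CHSY1 (-0.46 ± 0.18, limma adjusted p = 0.305). Of 7 tested N-glycan trimming genes 0 were higher and 1 lower, the glucosidase II subunit PRKCSH, at 68.3 and 70.8 against 46.8 and 47.2 FPKM.

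Positions of 6 genes described above are those of GENCODE release 29 on GRCh38, where all 6 are protein-coding. ST3GAL1 (ENSG00000008513.14_3) lies on chromosome 8 from 133454848 to 133571940, GALNT12 (ENSG00000119514.6_3) on chromosome 9 from 98807699 to 98850081 and ST6GALNAC4 (ENSG00000136840.18_3) on the same chromosome from 127907886 to 127917038. GALNT18 (ENSG00000110328.5_3) lies on chromosome 11 from 11270876 to 11622005, MGAT4A (ENSG00000071073.12_2) on chromosome 2 from 98619106 to 98731126 and CHST11 (ENSG00000171310.10_3) on chromosome 12 from 104455295 to 104762014.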

How the data were processed

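The authors deposited 1 FPKM value per gene and library, per the file headers, and worked on build hg38, per the submitters' processing notes. Aligner, annotation release, strand use: not given in the sources used here. Identifiers were paired with current symbols (11575 of 11650). In every gene kept in the files at least 1 group had a mean of 0.5009 FPKM or more, and genes with no value were not analysed here. Steps of 1 fragment were looked for in low values, but at most 5 genes shared a 1% window, so no depth was taken from them.

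Values were used as log2(FPKM + 1), with no further scaling, for the 10271 genes whose mean over the 4 libraries reached 1 FPKM. The 2 groups were compared by two-sided limma tests (limma 3.58.1, R 4.3.3) with trended variances and Benjamini-Hochberg adjustment across those genes. The function was tested on simulated data. With 2 libraries a group, exact permutation gives no p below 0.333. Figures were made in Python 3.11.15.

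The members and lists were chosen with earlier results of these data known. The genes named were all ganglioside enzymes with a value, members with an unadjusted p under 0.05, the 2 most abundant of each pathway, the 10 widest differences without overlap, and up to 3 genes of each related list. Pigment cell genes were also named. All other genes named, such as SLC35A1, NEU3, CHST9, HS6ST3 and MGAT1, were chosen after their values were seen. The alternatives were another pseudocount, filter or scaling, the replicate number as a block and leaving out each library. For the related lists, 1 result is not reported here.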

Additional observations from a re-analysis of the deposited data

How the results depend on the processing

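No member passed the adjusted limma threshold under any of 11 alternatives, where the lowest adjusted p was 0.0587. The 13 genes with an unadjusted p under 0.05 kept their direction wherever they were fitted. None of them had groups that overlapped, so only another scaling could have turned the direction, and the other alternatives could not. ST3GAL1, GALNT12, GALNT18 and MGAT4A kept an unadjusted limma p under 0.05 in each fit of all 4 libraries that held them. Others of the 13 did so too, CHST11, GALNT11 and B3GALT1 among them. Over the alternatives the differences of ST3GAL1, GALNT12, GALNT18 and MGAT4A ran from -1.588 to -1.097, -1.336 to -0.984, -1.949 to -0.9797 and -1.183 to -0.9107. Of the 36 tested members named by rule, 27 kept their direction throughout. For those of them whose groups did not overlap, again only another scaling could have turned it. With a minimum mean of 5 FPKM, which left 26 members to test, 1 was higher and 3 were lower at an unadjusted p under 0.05. Of the 5632 genes in that fit 327 were higher and 630 lower. Leaving out a library gave 1 to 6 higher and 4 to 18 lower, and ganglioside medians from -0.34 to 0.22. Scaling moved the balance of all genes at that level from 622 higher and 1045 lower to 916 and 886 (median-of-ratios) or 858 and 943 (quantile normalization), and the other way to 523 and 1263 with a common FPKM sum. With the replicate number as a block, 5 members were higher and 10 lower at that level and 0 passed. In that fit 569 of all 10271 genes were higher and 909 lower at the same level. Deviations of the libraries numbered 1 correlated across genes at -0.07. With 2 libraries a group this cannot show whether libraries of like number were paired, and the labels give only the number.

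The direction turned for 9 genes with small differences. With median-of-ratios scaling the difference was 0.0740 for B4GALT5, 0.0817 for EXTL2 and 0.0659 for FUT8, and with quantile normalization 0.0867, 0.0896 and 0.0556. With a common FPKM sum it was -0.0303 for B3GNT2. Leaving out each library in turn gave ranges across 0: B3GALT6 -0.2646 to 0.0143, B3GAT3 -0.1178 to 0.2849, B3GNT2 -0.2475 to 0.2781, B4GALNT1 -0.6834 to 0.2062, B4GALT5 -0.2455 to 0.2071, B4GALT6 -0.0104 to 0.6443, EXTL2 -0.2232 to 0.2020, FUT8 -0.1998 to 0.1836 and ST3GAL2 -0.6422 to 0.4067. The cause was not tested. Depth is unknown and limits what can be seen of members below about 1 FPKM.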
